A study of Mus musculus with 6 samples.

Results

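BCRF8C is one of 3 mouse cell lines whose transcripts were sequenced in this series, and its untreated state is described here against the other lines, BBC and ZNF. All 3 were established from marrow of diseased Balb/c mice as models of SCLL (stem cell leukemia and lymphoma), in which part of the receptor kinase FGFR1 is fused to another protein and drives growth of blood cells. The comparison used 3 of the 6 libraries: BCRF8C, BBC and ZNF, each grown for 24 h with the solvent DMSO. The other 3 libraries came from the same lines after 24 h with BGJ398, a small molecule inhibitor of FGFR kinases, and serve below as second libraries. They did not enter the 4-fold rule, but they bear on which entries were compared, since these had to be above 0 in a library of every line under either agent. If the protocol lists doses and lines in the same order, the dose was 30 nM for BBC, 3 nM for ZNF and 1.5 nM for BCRF8C, so the BGJ398 libraries are not replicates. The sources used here name neither the FGFR1 partner nor the lineage of each line, and 1 library per line and agent leaves no replicate check and no p-value. Differences between lines and differences between single libraries cannot be told apart, and in such bulk samples neither can fewer cells of a type and less RNA per cell.

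Lymphocytes that kill other cells, namely natural killer (NK) cells and cytotoxic T cells, store the pore-forming protein perforin and serine proteases called granzymes in granules. They depend on interleukin signals that pass through the receptor chain encoded by Il2rb, and on the transcription factor Eomes. T cells, cytotoxic ones included, and B cells carry antigen receptors, which they build by cutting and joining gene segments. Signals of the T cell receptor run through kinases such as Lck and adaptors such as Lat. Metallothioneins are small proteins that bind zinc and copper, and their genes respond to these metals.

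Values are FPKM, that is fragments relative to the transcript's length and to the number mapped. A gene was counted as high in BCRF8C when its log2(FPKM + 1) lay at least 2 above the higher of the other lines, which is 4-fold on that scale, and as low when it lay at least 2 below the lower of them. Adding 1 shrinks the differences of weakly expressed genes on this scale. Of 17169 gene entries, 13391 were above 0 in at least 1 library of every line, and 11399 of these, whose DMSO libraries averaged 1 FPKM or more, were compared. BCRF8C was high for 188 entries (1.65%) and low for 226 (1.98%). By the same rule BBC was high for 260 and low for 61, and ZNF was high for 154 and low for 155. Of the high entries 145 are named genes, and the rest are 28 unnamed gene models, 11 small RNA genes, 2 pseudogenes and 2 mitochondrial transcripts. Of the low entries 121 are named genes, beside 73 unnamed models, 14 small RNA genes, 11 pseudogenes, 4 histone cluster genes and 3 mitochondrial transcripts. Just inside the limits stood the unnamed 2610020H08Rik, with 9.85 FPKM in BBC, 10.9 in ZNF and 46.7 in BCRF8C, and Klhl24, with 21.3, 20.7 and 4.40. Just outside stood Magohb, with 29.6, 27.1 and 119.6 FPKM, and Pak1, with 4.69, 3.98 and 0.249.

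**Figure D1:**
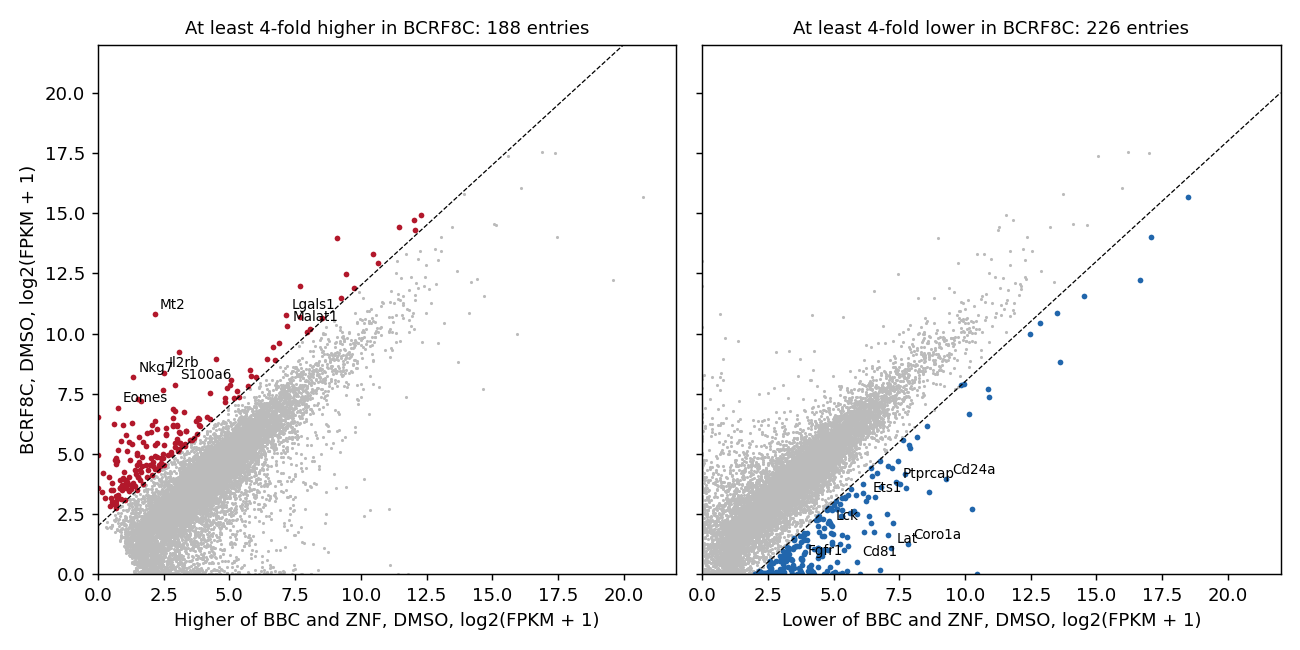
Level of each of the 11399 compared entries in BCRF8C (vertical axis) against the higher (left) or the lower (right) of BBC and ZNF in DMSO, all as log2(FPKM + 1), with the 4-fold limit dashed. The 188 high entries (red) include Mt2 and Nkg7 far above the limit, and the 226 low entries (blue) include Cd24a, Coro1a and Lat far below it.

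The table holds a selection of genes, which bears on every count. Each entry above 0 in BBC reached at least 1.02 FPKM in a BBC library and only 14 entries were at 0 there, so genes silent in BBC mostly have no entry even if BCRF8C expressed them. Gzmb, Klrk1, Ncr1, Tyrobp and Fcer1g are among the genes without an entry and were not analysed here. Of the entries above 0 in BCRF8C, 98.8% reached 1 FPKM in 1 of its libraries, and none was at 0 in 1 library only, so a pair of zeros cannot be told apart from low levels in both libraries or from a failed estimate. Entries at 0 in both libraries of a line are therefore described apart. There were 447 at 0 in ZNF and averaging 1 FPKM or more, and BCRF8C lay at least 4-fold above BBC in 62 of them (13.9%). There were 308 at 0 in BCRF8C, of which 118 (38.3%) reached the low limit if 0 is taken as a level.

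Several genes of cytotoxic lymphocytes were high in BCRF8C. Of the 17 genes on the NK and cytotoxic list, 7 had an entry. Among 4 that could be compared 3 were high, against 1.65% of all compared entries. The other 3, all at 0 in ZNF, lay at least 4-fold above BBC, against 13.9% of such entries. Nkg7, Eomes and those 3 averaged 1 FPKM or more only through BCRF8C, which bears on these shares. Prf1, which encodes perforin, was at 489 FPKM in BCRF8C, 1.43 in BBC and 0 in ZNF. Nkg7, a gene of cytotoxic granules, was at 288 FPKM in BCRF8C, 1.54 in BBC and 0.585 in ZNF. The transcription factor gene Eomes was at 119.7 FPKM against 0.680 and 0.0684. In each of these genes BBC lay far below BCRF8C, and in Nkg7 and Eomes ZNF did too. The granzyme gene Gzma did not share this pattern, with 887 FPKM in BCRF8C, 1055 in ZNF and 0.832 in BBC.

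Some receptor genes of NK cells, and a few other genes, were also high. Klrd1 and Klrb1c are on the NK list and were counted above. The other high genes here are not on that list and were picked with their values known, so they add no separate support. Klrd1, which encodes the CD94 chain of NK receptors, was at 52.8 FPKM in BCRF8C, 0.809 in BBC and 0 in ZNF. Klrb1c, a receptor gene of NK cells, was at 32.7 FPKM against 2.25 and 0, and the related receptor gene Klrb1a at 16.9 against 0.809 and 0. The receptor gene Cd244 was at 18.2 FPKM in BCRF8C, 0.982 in BBC and 0.435 in ZNF. The gene of its ligand, Cd48, was at 0 in both BCRF8C libraries, with 42.0 FPKM in BBC and 21.4 in ZNF. Fcgr3, an activating receptor for the constant part of antibodies, was at 44.7 FPKM in BCRF8C against 1.30 and 0.545. Serpinb9, an inhibitor of granzyme B, was at 80.4 FPKM against 3.49 and 3.36.

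Markers of other cell types gave no single picture in BCRF8C. Of the 22 genes on the B cell list 7 were at 0 in both BCRF8C libraries, among them Cd79b, Vpreb1, Vpreb2, Igll1 and Btk, and 6 of the 7, these included, were at 0 in ZNF as well. The summed level of the list was 60.5 FPKM in BCRF8C, 652 in ZNF and 4159 in BBC. Without Cd24a it was 46.1, 24.0 and 3049 FPKM, so BCRF8C lay above ZNF. Of its 8 compared genes 1 (Cd24a) was low and 5 lay below both lines, Cd79a and Spib with gaps of only -0.04 and -0.03. Over all compared entries 1.98% were low and 31.3% lay below both. On the T cell list Cd3d was at 0 in BCRF8C and Cd3g at 0.136 FPKM, while the list summed to 200.1 FPKM in BCRF8C, 279 in BBC and 1829 in ZNF. The monocyte and macrophage list summed highest in BCRF8C, at 571 FPKM against 169 in BBC and 22.4 in ZNF, and without Ccr2 at 83.6 against 168 and 22.4. On that list Fcgr3 was high, and Ccr2 was high against BBC and at 0 in ZNF. Lyz2 was at the floor of 0.001 FPKM in BCRF8C, and 10 of the 24 genes had no entry. The list of stem and progenitor genes also summed highest in BCRF8C, at 1010 FPKM against 641 and 403, of which the surface protein gene Ly6a made up 831, 293 and 1.58. On the list of neutrophil genes 14 of 19 genes had no entry, and the rest summed to 19.0 FPKM in BCRF8C, 3.07 in BBC and 26.4 in ZNF. None of the 9 compared stem and progenitor genes or the 2 compared neutrophil genes passed the 4-fold limits. The part of these other cell types in the results was not tested. No label names the lineage of BCRF8C, and these lists give it none.

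**Figure D2:**
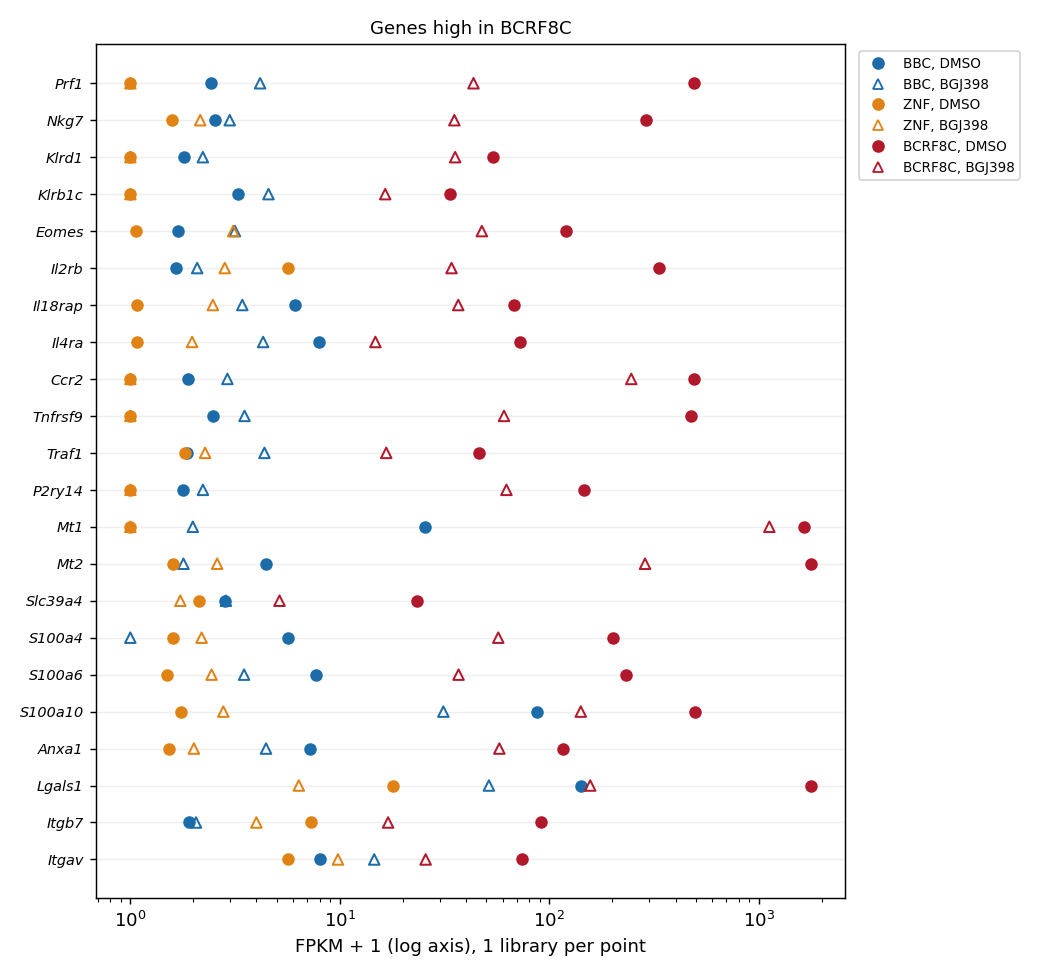
FPKM + 1 on a log axis for 22 genes high in BCRF8C or high against BBC and at 0 in ZNF, with 1 point per library, filled for DMSO and open for BGJ398. In each of these genes the BCRF8C value in DMSO (filled red) lies to the right of every BBC and ZNF library, and the BCRF8C value with BGJ398 (open red) lies right of the other lines' BGJ398 libraries.

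Cytokine and chemokine receptors were the next group. Il2rb, the chain shared by the receptors for interleukins 2 and 15, was at 331 FPKM in BCRF8C, 0.656 in BBC and 4.64 in ZNF. The partner chains did not stand apart in the same way: Il2ra was at 29.6, 20.5 and 2.26 FPKM in the same order, and Il2rg at 17.2, 68.2 and 23.7. Il18rap, a chain of the interleukin 18 receptor, was at 67.1 FPKM against 5.10 and 0.0701, and Il4ra at 71.4 against 6.98 and 0.0797. In all, 3 of the 24 compared cytokine receptor genes were high, against 1.65% of all compared entries, and none was low, while Il27ra was at 0 in BCRF8C. As a group they were balanced, with 8 above both lines and 8 below both (33.3% each, against 39.5% and 31.3% of all) and median log2 differences of 0.01 from BBC and -0.07 from ZNF. Cish, a feedback inhibitor that cytokine receptors induce through STAT5, was at 21.5 FPKM in BCRF8C, 3.30 in BBC and 1.45 in ZNF. Socs2, of the same feedback family, went the other way with 109.1, 228 and 278 FPKM.

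Ccr2 (ENSMUSG00000049103, chromosome 9, 124016689 to 124028296 in NCBIM37), the receptor for the chemokine CCL2, was at 487 FPKM in BCRF8C, 0.894 in BBC and 0 in ZNF, and at 245, 1.91 and 0 with BGJ398. It was thus far above BBC in each set of libraries, while its zeros in ZNF may stand for failed estimates. Cxcr4, which holds blood cells in the bone marrow, was lower in BCRF8C, at 30.7 FPKM against 76.8 in BBC and 210 in ZNF, short of the 4-fold limit. P2ry14 (ENSMUSG00000036381, chromosome 3, 58791092 to 59148178), a receptor for UDP-sugars, was at 145 FPKM in BCRF8C, 0.777 in BBC and 0 in ZNF. Among nucleotide receptors Gpr34 was likewise at 21.7, 0.879 and 0 FPKM, while P2ry10 was low, at 5.13 FPKM against 53.4 and 73.1. The locus of P2ry14 holds 5 entries of the table, so its reads may not be fully separated from theirs.

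The TNF receptor family split in BCRF8C. Tnfrsf9 (ENSMUSG00000028965, chromosome 4, 150288671 to 150320211), a costimulatory receptor of lymphocytes, was at 472 FPKM in BCRF8C, 1.49 in BBC and 0 in ZNF. Traf1, an adaptor that binds such receptors, was at 45.3 FPKM against 0.864 and 0.825. In this family 3 genes were low: Tnfrsf13b, a receptor for B cell survival factors, at 0.0914 FPKM against 72.0 in BBC and 15.1 in ZNF, Ltb at 0.0574 against 117.3 and 7.75, and Tnfsf11 at 2.17 against 30.7 and 33.0. The other 10 of the 13 compared genes lay inside the limits, while 1.98% of all compared entries were low. The costimulatory receptor gene Cd28 was high, at 24.2 FPKM against 2.77 and 3.29.

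Both metallothionein genes with an entry were high in BCRF8C, Mt1 against BBC only, since it was at 0 in ZNF. Mt2 (ENSMUSG00000031762) was at 1774 FPKM in BCRF8C, 3.46 in BBC and 0.604 in ZNF, a log2 gap of 8.64 that was the largest of all compared entries. Mt1 (ENSMUSG00000031765) was at 1645 FPKM in BCRF8C, 24.4 in BBC and 0 in ZNF. With BGJ398 the same genes were at 285 and 1121 FPKM in BCRF8C, and neither reached 2 FPKM in the BGJ398 libraries of the other lines. They lie 5522 bases apart on chromosome 8 of build NCBIM37, Mt2 from 96696518 to 96697467 and Mt1 from 96702989 to 96704225. Of the other zinc genes Slc39a4, an importer of zinc, was high at 22.3 FPKM against 1.84 and 1.13. Mtf1, the factor that binds metal response elements, was at 6.95 FPKM in BCRF8C, 4.56 in BBC and 4.90 in ZNF, and 17 of the 19 compared genes on the list lay inside the limits.

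The promoters of Mt2 and Mt1 are shown because these neighbours were high together, and those of Prf1 and Nkg7 because they led the cytotoxic genes. Each is the 250 bases before the RefSeq start in build GRCm38.p6, on the plus strand. Capitals mark matches on either strand to the metal response element cores TGCACNC or TGCGCNC in the metallothionein genes, and to RUNX (TGTGGT), T-box (GGTGTGA) or STAT (TTCNNNGAA) motifs in the cytotoxic genes, and no marked matches overlap.
Mt2, chr8:94172368-94172617: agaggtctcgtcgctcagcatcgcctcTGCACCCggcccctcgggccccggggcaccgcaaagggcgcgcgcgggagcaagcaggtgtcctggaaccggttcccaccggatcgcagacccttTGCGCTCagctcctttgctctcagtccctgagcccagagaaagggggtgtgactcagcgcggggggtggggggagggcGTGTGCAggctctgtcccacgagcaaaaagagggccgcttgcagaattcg
Mt1, chr8:94178839-94179088: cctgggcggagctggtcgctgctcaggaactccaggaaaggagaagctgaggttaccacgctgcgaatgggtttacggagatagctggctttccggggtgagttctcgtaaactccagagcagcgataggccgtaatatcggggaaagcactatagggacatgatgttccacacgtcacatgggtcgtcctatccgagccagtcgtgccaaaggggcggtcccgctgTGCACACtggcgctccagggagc
Prf1, chr10:61297586-61297835: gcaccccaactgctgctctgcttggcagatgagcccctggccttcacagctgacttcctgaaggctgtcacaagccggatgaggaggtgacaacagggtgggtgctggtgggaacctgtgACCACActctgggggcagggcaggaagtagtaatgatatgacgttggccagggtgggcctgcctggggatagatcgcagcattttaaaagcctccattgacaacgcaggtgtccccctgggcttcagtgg
Nkg7, chr7:43436888-43437137: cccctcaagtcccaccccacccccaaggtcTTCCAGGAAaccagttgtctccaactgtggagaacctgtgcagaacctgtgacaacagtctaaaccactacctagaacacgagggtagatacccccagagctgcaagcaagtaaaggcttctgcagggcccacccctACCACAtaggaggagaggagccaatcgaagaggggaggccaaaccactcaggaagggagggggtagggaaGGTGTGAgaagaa

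The Mt2 window held 3 metal response element cores and the Mt1 window 1. Cores beyond either end of these windows were not counted, so the counts do not rank the promoters. Of 32851 promoter windows of this length 21.4% held at least 1 such core and 1.26% held 3 or more. The Mt2 window also held 1 GGTGTGA, left in lower case. Prf1 had 1 RUNX match and Nkg7 had 1 match each to the RUNX, T-box and STAT motifs, which 14.05%, 3.33% and 7.02% of all windows held. A match is a description of these letters and not a measured binding site.

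Of 6 compared genes of the calcium-binding S100 proteins 5 were high in BCRF8C, a group picked after its values were seen. Over all compared entries 1.65% were high and 1.98% low. S100a4 was at 200.3 FPKM in BCRF8C, 4.63 in BBC and 0.597 in ZNF, S100a6 at 232 against 6.68 and 0.492, and S100a10 at 493 against 86.5 and 0.742. S100a13 was the exception, at 67.9 FPKM in BCRF8C and 76.5 in BBC. Of 7 compared annexin genes, whose proteins bind membranes, 1 was high, namely Anxa1 at 114.7 FPKM against 6.18 and 0.525. Anxa11 lay below both lines, at 14.4 FPKM against 43.8 and 66.9. Lgals1, which encodes galectin-1, was high at 1765 FPKM against 140.7 and 17.0. Among 21 compared adhesion genes 4 were high, namely Itgb7, Itgav, Itgb1 and Cd9, and Cd81 was low. Of these 21 genes 10 lay above both lines and 6 below both (47.6% and 28.6%), near the 39.5% and 31.3% of all compared entries. Their median log2 difference was 0.03 from BBC and 1.22 from ZNF, against 0.05 and 0.11 over all compared entries. Itgb7, an integrin chain for homing to the gut, was at 90.1 FPKM against 0.896 and 6.28, and Itgav at 73.2 against 7.01 and 4.65.

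Several components of antigen receptor signalling were low in BCRF8C. Lat, the membrane adaptor that T cell receptor signals pass through, was at 1.12 FPKM in BCRF8C, 145 in BBC and 386 in ZNF. Lck, the kinase that starts that signal, was at 3.12 FPKM against 28.6 and 161, and Plcg1, the phospholipase that Lat recruits, at 1.65 against 15.1 and 24.1. The phosphatase gene Ptpn6 was at 2.96 FPKM against 133 and 30.1, and Ptprcap, a partner of CD45, at 12.7 against 296 and 169. Ptprc, which encodes CD45 itself, was at 95.8 FPKM in BCRF8C, 86.1 in BBC and 176 in ZNF. Of the 15 compared T cell genes 4 were low (Lck, Lat, Cd2 and Notch1) and 1 was high (Cd28). Over all compared entries 1.98% were low and 1.65% high. BCRF8C lay between the other lines for Cd247, at 12.9 FPKM against 0.349 in BBC and 93.2 in ZNF.

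The low genes with the largest gaps included several that encode surface proteins. Cd24a, a surface marker of immature lymphocytes, was at 14.4 FPKM in BCRF8C, 1110 in BBC and 628 in ZNF. The tetraspanin gene Cd81 was at 0.440 FPKM against 75.7 and 58.9, and Slamf6, a receptor of lymphocytes, at 0.0547 against 39.9 and 32.3. Ctse, which encodes the protease cathepsin E, was at 0.0919 FPKM against 132 and 45.2. Dntt, whose enzyme adds bases at the joints of receptor genes, was at 0 in both BCRF8C libraries, with 61.1 FPKM in BBC and 264 in ZNF. Rag1, of the recombinase that cuts these genes, was at the floor of 0.001 FPKM in BCRF8C, 0.360 in BBC and 272 in ZNF. Of the 9 compared genes on the V(D)J recombination list none passed the 4-fold limits, and 7 (77.8%) lay below both other lines, against 31.3% of all compared entries.

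**Figure D3:**
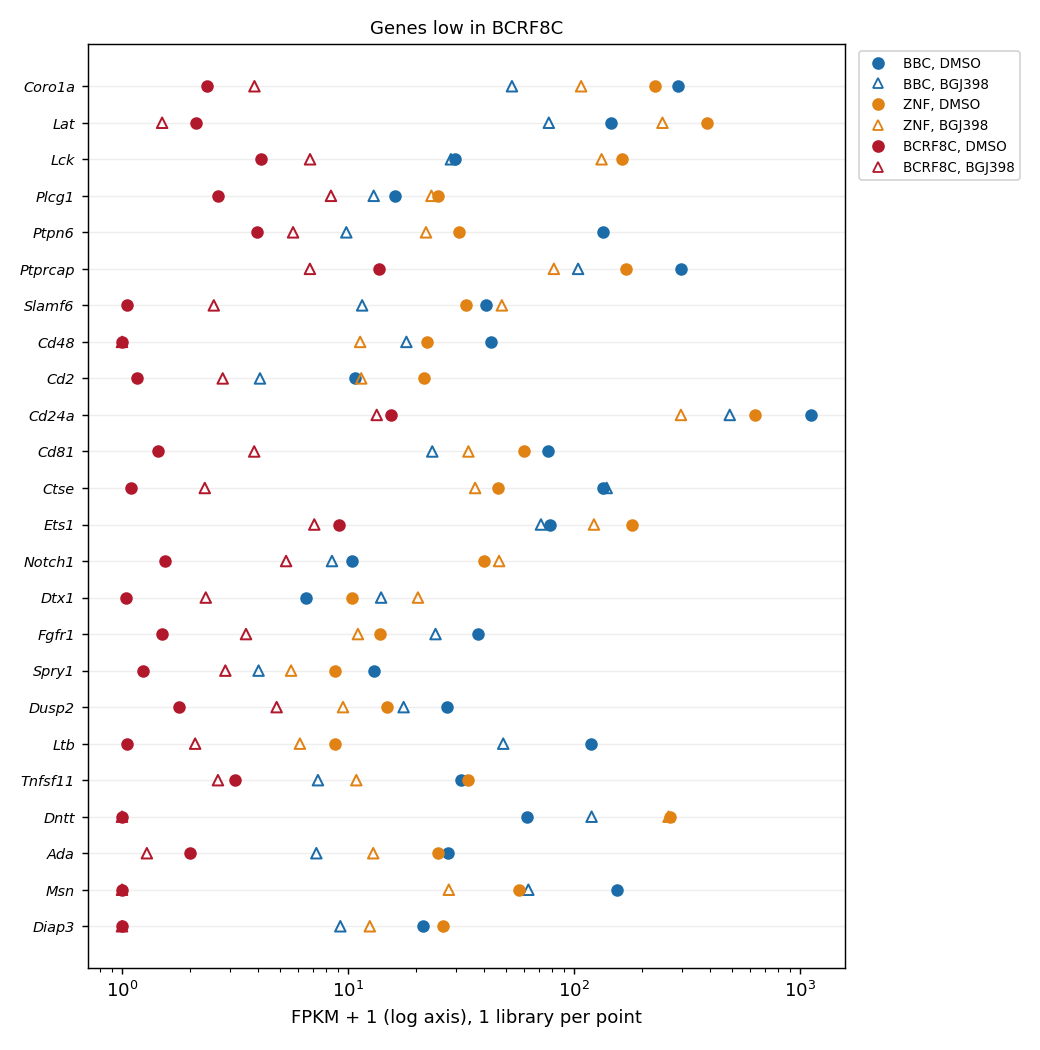
FPKM + 1 on a log axis for 24 genes low in BCRF8C, with 1 point per library, filled for DMSO and open for BGJ398. In each of these genes the BCRF8C value in DMSO (filled red) lies to the left of both other lines in DMSO, and Cd48, Dntt, Msn and Diap3 are at 0 in both BCRF8C libraries.

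Genes of actin-binding proteins went both ways, as a few examples picked after values were seen show. Coro1a, an actin regulator of blood cells, was at 1.38 FPKM in BCRF8C, 286 in BBC and 226 in ZNF, a log2 gap of -6.58. Msn, which links actin to the membrane, was at 0 in both BCRF8C libraries, with 154 FPKM in BBC and 55.7 in ZNF, and Diap3, a nucleator of actin filaments, was at 0 with 20.4 and 25.3. Tmsb10, which encodes an actin-binding thymosin, was high at 777 FPKM against 116 and 102, and Lasp1 was high at 72.1 against 13.3 and 11.3. Actin itself was not low: Actb was at 2984 FPKM in BCRF8C, 3137 in BBC and 1612 in ZNF, and Actg1 was high, at 477 FPKM against 70.7 and 106. The highest listed entry at 0 in BCRF8C, under the symbol Uck2, spans only 93 bases, and its values of 661 FPKM in BBC and 15735 in ZNF are uncertain for that reason.

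Of the 8 compared Notch genes 3 were low and 1 was high, against 1.98% and 1.65% of all compared entries. The receptor gene Notch1 was at 0.544 FPKM in BCRF8C, 9.37 in BBC and 39.0 in ZNF, and the target genes Dtx1 and Nrarp were at 0.0405 and 1.09 FPKM, against at least 5.50 and 10.1 in the other lines. Hes1, another target, was at 3.34 FPKM against 31.0 and 11.4, inside the limit. The ligand gene Dll1 was high, at 22.7 FPKM against 0.606 in BBC and the floor of 0.001 in ZNF. It averaged 1 FPKM or more only through BCRF8C, which bears on the share of high Notch genes. Ets1, a transcription factor of lymphocytes, was at 8.12 FPKM in BCRF8C, 77.4 in BBC and 179.6 in ZNF. Id3 and Id2, inhibitors of E-protein transcription factors, differed in direction: Id3 was at 3.35 FPKM against 77.1 and 28.5, and Id2 at 354 against 17.8 and 54.4.

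Fgfr1 was low in BCRF8C, at 0.510 FPKM in DMSO against 36.7 in BBC and 12.9 in ZNF. With BGJ398 it was at 2.54, 23.3 and 10.1 FPKM in the same order, again lowest in BCRF8C. Reads of a fusion transcript and of the intact gene are not told apart in this value. Of 16 compared genes for ERK feedback and the immediate early response, Spry1 and Dusp2 were low and Ier3 was high. Over all compared entries 1.98% were low and 1.65% high. Spry1, an inhibitor of receptor kinase signalling, was at 0.234 FPKM against 12.1 and 7.75. Dusp6, a phosphatase induced by ERK, was at 87.1 FPKM in BCRF8C, 85.8 in BBC and 11.1 in ZNF, so it did not follow Fgfr1.

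The BGJ398 libraries gave a second view of the same lines. Between them BCRF8C was high for 93 compared entries (0.816%) and low for 235 (2.06%). Of the 188 entries high in DMSO 54 (28.7%) were also high with BGJ398, which is 58.1% of the BGJ398 list, and 169 (89.9%) lay above both lines, against 27.3% of all compared entries. Of the 226 low in DMSO 89 (39.4%) were also low with BGJ398, which is 37.9% of that list, and 194 (85.8%) lay below both lines, against 33.6% of all. After quantile normalization these shares were 50.0% and 58.3%. The median gap of the high entries was 2.69 in DMSO and 1.47 with BGJ398, and that of the low entries -2.82 and -1.505. The listing of entries bears on this: of 102 low entries under 1 FPKM in BCRF8C in DMSO, 96 were at 1 FPKM or more there with BGJ398.

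Among the 25 named genes with the largest high gap, 17 were past 4-fold with BGJ398 and 24 kept their sign. Mt2 kept a gap of 6.78, S100a4 of 4.70, Eomes of 3.92, Anxa1 of 3.70 and Il2rb of 3.60. Among the 25 with the largest low gap 18 were past 4-fold and 23 kept their sign, with Lat at -5.68, Cd24a at -4.47 and Coro1a at -3.78. The 10 genes at 0 in ZNF with the highest BCRF8C level all stayed above BBC with BGJ398, 8 of them past 4-fold, with Mt1 at a difference of 9.14 and Ccr2 at 6.40.

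**Figure D4:**
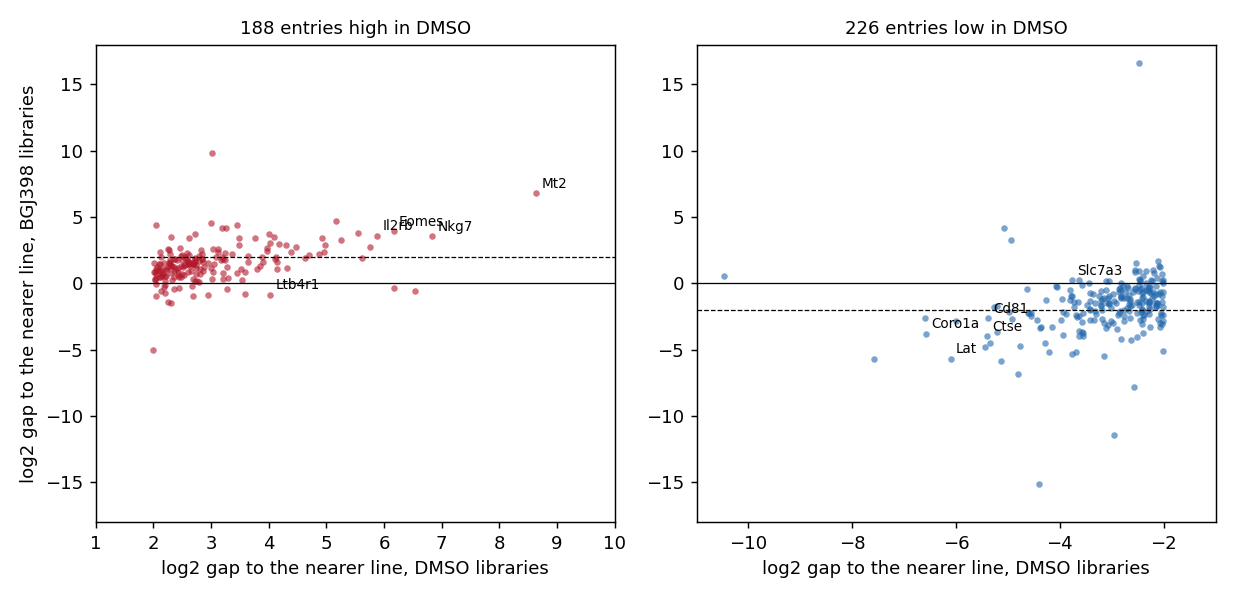
Log2 gap between BCRF8C and the nearer of the other lines in the BGJ398 libraries (vertical axis) against the same gap in the DMSO libraries, for the 188 high (left) and 226 low (right) entries, with 0 as a solid line and the 4-fold limit dashed. Most points lie on the same side of 0 in both, 169 of 188 and 194 of 226, and fewer lie past the limit with BGJ398.

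Many of the gene lists examined held no called gene, but these lists do not hold every gene of their kind. None of the compared genes passed the 4-fold limits on the lists of cell cycle genes (25 compared), interferon response (19), MYC and growth (17), MHC class I and loading (16), the BCL2 family (11) and MHC class II (5). Over all compared entries only 1.65% were high and 1.98% low, so a lack of calls on lists this short says little about them. Outside these lists, the MHC class I gene H2-Q10 was high, at 104.6 FPKM in BCRF8C, 7.75 in BBC and 8.65 in ZNF. H2-T22 was low, at 4.80 FPKM against 47.9 and 95.2, and Ifitm2 was high, at 1652 against 205 and 40.0. No member of the lists named next passed the limits either. The same held for the lists of dendritic cells (6), erythroid cells and megakaryocytes (6), mast cells (3), plasma cells (2), chemokines (2) and stromal cells (1), most of them with few compared genes.

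Libraries of the lines differed in further ways. All 12 mitochondrial mRNAs examined were higher in BCRF8C than in both other lines in DMSO, mt-Nd2 with a gap of only 0.12. Of the 12, 2 (mt-Atp8 and mt-Nd6) were past 4-fold. With BGJ398 10 of the 12 lay above both lines, while mt-Co3 and mt-Nd3 did not. In DMSO the 12 summed to 82224 FPKM in BCRF8C, 21536 in BBC and 36035 in ZNF. The part of this difference in the results above was not tested. The median level of the compared entries was 13.7 FPKM in BCRF8C, 13.5 in BBC and 12.4 in ZNF, and sequencing depth is unknown. Across genes, which are not independent replicates, BCRF8C correlated with BBC at Pearson's r = 0.82 and with ZNF at 0.81 on the log2 scale, and BBC with ZNF at 0.84.

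Levels in BCRF8C also differed by chromosome, a pattern noticed after the values were seen. Relative to all compared entries, the median log2 difference of BCRF8C on chromosome 12 was -0.45 from BBC and -0.59 from ZNF. The medians were -0.47 and -0.55 on chromosome 16 and -0.27 and -0.40 on chromosome 14, so all 3 were below both lines. Chromosome 8 was above both, at 0.30 and 0.20, as was chromosome 11, at 0.29 and 0.16. They were not alone, since chromosomes 2, 4, 6, 13, 17 and 19 were also above both, chromosome 19 at 0.22 and 0.20. The X chromosome differed from BBC alone, at -0.71 against 0.01 from ZNF. In the BGJ398 libraries the signs were the same for 19 of 20 chromosomes against BBC and for 17 of 20 against ZNF, with -0.49 and -0.54 on chromosome 12. Both differences share the BCRF8C library, so they are not independent.

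**Figure D5:**
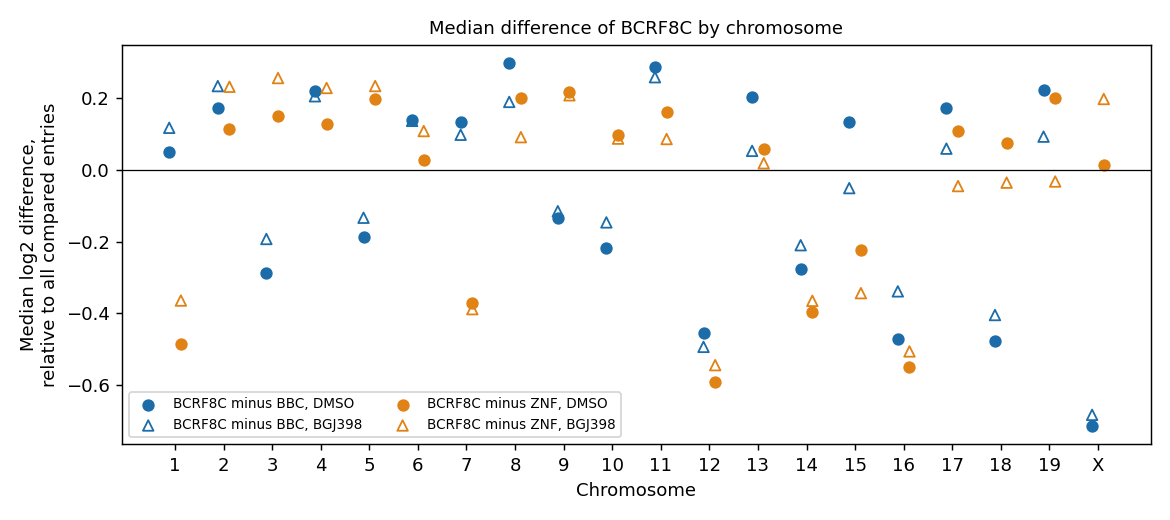
Median log2 difference of the compared entries of each chromosome, BCRF8C minus BBC (blue) and minus ZNF (orange), relative to the median of all compared entries, filled for DMSO and open for BGJ398. Chromosomes 12, 14 and 16 lie below 0 in all 4 comparisons, and the X chromosome lies at -0.71 against BBC and 0.01 against ZNF in DMSO.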

How the data were processed

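The authors deposited 1 table of FPKM values with 17169 gene entries and 6 columns, each matched to 1 sample by its title, so 0 value columns stayed unmapped. TopHat2 (version 2.0.12), bcl2fastq and build NCBIM37 are named, with no order or role, in the submitters' processing notes. How FPKM were estimated, from which annotation and with which strandedness and filters, is not given in the sources used here. Without counts, depth is unknown and no counting error can be given.

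Values were compared as log2(FPKM + 1), with a pseudocount of 1 FPKM and no rescaling, in Python 3.11.15 with pandas 2.3.3 and numpy 2.4.6. The counting rule was tested on simulated data. These held large planted changes in well expressed entries only, so weak entries and changes near the limit were not covered. The members, gene lists and thresholds were chosen with earlier results of these data known. Named genes were the 25 with the largest gap in each direction among entries reaching 10 FPKM, members of the 34 lists, and 2 sets of 10 with zeros. These were the highest in BCRF8C among entries at 0 in ZNF and at least 4-fold above BBC, and those with the highest lower value of BBC and ZNF among entries at 0 in BCRF8C. Unnamed models, pseudogenes, receptor segments, small RNA and histone cluster genes were left out, by patterns of symbols written after a first ranking had been seen. S100, annexin, Id, actin and a few other genes named outside this rule, the 4 promoters and the 5 motifs were chosen after values were seen. Starts are the table's raised by 1. Promoter sequences come from RefSeq (GRCm38.p6). Alternatives were other pseudocounts, filters, thresholds, scalings and comparison lines. Lists with no result in the text, and some genes of the others, are not reported here.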

Additional observations from a re-analysis of the deposited data

Results flagged for a closer look

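Among the 50 named genes with the largest gaps in DMSO, 3 had a gap of the opposite sign between the BGJ398 libraries, and the difference was not tested. Ltb4r1, a leukotriene receptor gene, was at 17.4 FPKM in BCRF8C in DMSO, 0.132 in BBC and the floor of 0.001 in ZNF. With BGJ398 it was at 2.30, 1.08 and 4.92 FPKM in the same order, a log2 gap of -0.84. Slc7a3, an amino acid transporter gene, was at 0.237 FPKM in BCRF8C against 15.8 and 33.7 in DMSO, and at 5.04 against 4.10 and 5.64 with BGJ398, a gap of 0.24. Jakmip1 was at 0.740 FPKM in BCRF8C against 31.7 and 20.6 in DMSO, and at 8.61 against 18.3 and 7.16 with BGJ398, also a gap of 0.24.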

How the results depend on the processing

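The counts of 188 high and 226 low entries rested on the scale and the threshold. A pseudocount of 5 FPKM gave 99 and 97, and one of 0.1 FPKM gave 253 high and 508 low. A 2-fold threshold gave 798 and 779, and an 8-fold one 69 and 97. BBC alone as comparison gave 309 and 642, ZNF alone 528 and 544. With 0 taken as a level, 344 entries were low and 250 high. Without entries that share a locus with another, an alternative added after seeing the data, 118 were high and 164 low. Quantile normalization gave 142 high, of which 140 were among the 188, and 151 low, of which 149 were among the 226. The share of high entries also high with BGJ398 was 38.3% after median-of-ratios scaling and 50.0% after quantile normalization. That of low entries was 58.3% after quantile normalization and 26.0% with a pseudocount of 0.1 FPKM. The median difference over all entries was 0.05 from BBC and 0.11 from ZNF. After median-of-ratios scaling it was -0.010 and -9.08e-05, without a filter -0.080 and 0.061, and at a mean of at least 5 FPKM 0.12 and 0.14. All 70 genes named by rank kept their direction and stayed past 4-fold with a pseudocount of 0.1 FPKM, median-of-ratios scaling and quantile normalization. No paired analysis was possible because each line has 1 library per agent. Leaving out a replicate was not possible for the same reason.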

Other observations

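Some genes set BCRF8C apart together with 1 other line. The counts given next are not a separate class, since they include genes such as S100a10 and Emp3 that also counted as high in BCRF8C above. BCRF8C and BBC were both at least 4-fold above ZNF for 155 entries, among them Irf8, a transcription factor of B and myeloid cells, at 77.4 FPKM in BCRF8C, 203 in BBC and 0.734 in ZNF. The kinase genes Lyn and Syk were at 15.2 and 13.9 FPKM in BCRF8C and under 0.1 FPKM in ZNF. BCRF8C and ZNF were both at least 4-fold above BBC for 61 entries, among them Gzma and Themis, a gene of T cell development, at 10.00 FPKM in BCRF8C, 123 in ZNF and 0.837 in BBC. The integrin gene Itgal was at 44.0, 18.3 and 1.17 FPKM.

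Several called genes lay within 100 kb of another in NCBIM37, with 8 such pairs among the high genes and 7 among the low, a window chosen after the values were seen. Another 2 pairs of high entries and 1 of low entries have identical locus coordinates and were not counted. High pairs included S100a4 and S100a6, 6849 bases apart on chromosome 3. Low pairs included Dtx1 and Rasal1, 605 bases apart on chromosome 5, and Ada and Pkig, 426 bases apart on chromosome 2. How often 2 called genes lie this close elsewhere was not tested.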
